A study of Homo sapiens with 15 samples.

Results

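The 10 genes described here encode components of the desmosome, and they were taken by symbol from a table of 19612 genes. They are the desmosomal cadherins DSG2, DSG3, DSC2 and DSC3, the plakin DSP, the armadillo proteins JUP, PKP1, PKP2 and PKP3, and the membrane protein PERP. RNA sequencing was performed on 15 libraries, 3 in each of 5 conditions, from the lung adenocarcinoma line H1975 and its osimertinib-resistant sub-line H1975–OR. Both lines carry the EGFR mutations L858R and T790M. H1975–OR was derived by chronic exposure of H1975 to osimertinib, an inhibitor of the EGFR tyrosine kinase, and was kept in 500 nM osimertinib. H1975 cells received vehicle and are Samples 1a, 1b and 1c. Of the H1975–OR cells, the libraries numbered 2 received vehicle, those numbered 3 received 1,25(OH)2D3, the active form of vitamin D3, at 100 nM, those numbered 4 received osimertinib at 500 nM, and those numbered 5 received the combination of both agents at these doses, each with the letters a, b and c. All were harvested after 96 h in charcoal-stripped serum, with agents or vehicle added at 0, 48 and 92 h. The H1975–OR libraries with vehicle or with 1,25(OH)2D3 alone were thus given no osimertinib during these 96 h. The sub-line is 1 derivation from 1 parental line, and the sources used here do not state whether it is clonal.

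Desmosomes are spot-like junctions that join the keratin filaments of neighbouring epithelial cells. The extracellular parts of desmogleins and desmocollins pair between cells, plakoglobin (JUP) and the plakophilins bind their cytoplasmic tails, and desmoplakin (DSP) links this plaque to keratin. Carcinoma cells that lose epithelial features in an epithelial–mesenchymal transition often lose these junctions, and the transition is driven by repressors such as ZEB1, ZEB2 and SNAI2.

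Levels are given as CPM, the deposited estimated counts divided by the TMM-scaled library size, and ± marks the SD over libraries. The libraries summed to between 4378030 and 6140120 counts, so that 3 counts, taken as the floor of detection, equalled 0.477 to 0.708 CPM. The 10 genes together took 0.0403% to 0.102% of a library. Sample 3a stood apart from its group: on average it correlated at r = 0.915 with Samples 3b and 3c, whereas the other 14 libraries correlated at 0.937 to 0.965 with their own groups. It was left out of group means and tests, as in the study, and its values are given beside them. CYP24A1, the vitamin D-degrading enzyme and a standard target of the vitamin D receptor, stood at 5.57 ± 2.72 CPM with vehicle (n = 3) and 1170 ± 425 CPM with 1,25(OH)2D3 (n = 2). The study took RNA from 3 separate passages, so p-values measure the spread between passages of 1 line. In bulk RNA, fewer cells expressing a gene and less RNA per cell cannot be told apart.

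The desmosomal cadherin genes lie together on chromosome 18 (GRCh38, 30989365 to 31549008, GENCODE v44), desmocollins on the minus strand and desmogleins on the plus strand. DSC2, 31058840 to 31102522 with 16 exons, was the only one of the 4 cadherin members that could be tested. DSP lies on chromosome 6 at 7541338 to 7586714 on the plus strand, with 24 exons, and PERP on the same chromosome at 138088505 to 138107419 on the minus strand, with 3 exons. JUP lies on chromosome 17 at 41754604 to 41786931 (minus strand), PKP3 on chromosome 11 at 392614 to 404908 (plus strand), PKP2 on chromosome 12 at 32790745 to 32896798 (minus strand) and PKP1 on chromosome 1 at 201283452 to 201332993 (plus strand). DSP, DSC2 and DSG2 each overlap an annotated antisense gene (DSP-AS1, DSCAS and DSG2-AS1). The library kit keeps strand, but whether the counting used it is not given in the sources used here, so reads of these pairs may not be separated.

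Upstream sequences are shown for the members whose promoters hold the E-box CAGGTG, because this hexamer is the known binding site of ZEB and Snail factors, whose own transcripts differed between the lines. The hexamer was searched on both strands (CAGGTG or CACCTG) in the 250 bases before each RefSeq start (GRCh38.p14), and 17.5% of 35116 such windows hold it. RefSeq windows were matched for 8 of the 10 members, 10 windows in all because DSC2 and JUP have 2 each, and not for PKP2 and PKP3. DSG2, DSC2, DSP and JUP each had 1 window with the hexamer. For the 3 of these that were tested, the hexamer is in capitals with 12 bases on each side, written 5′ to 3′ on the strand of the gene. The DSP stretches printed are at chr6:7541481-7541510 and chr6:7541574-7541603 (plus strand), and their hexamers begin 178 and 85 bases before the start. The DSC2 stretch is at chr18:31102560-31102589 (minus strand), and its hexamer begins 156 bases before the start. The JUP stretches are at chr17:41786013-41786042 and chr17:41786002-41786031 (minus strand), and their hexamers begin 54 and 43 bases before the start. Distances are from the RefSeq start of the window. The DSP and JUP sites lie inside the limits of those genes in GENCODE v44, downstream of an earlier annotated start, and the DSC2 site lies upstream of its gene.
DSP site 1: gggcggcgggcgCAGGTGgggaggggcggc
DSP site 2: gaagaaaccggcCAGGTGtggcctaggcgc
DSC2 site: tcaactttctgtCAGGTGggcctcaggcag
JUP site 1: cgactctggcccCACCTGccgagcaggtga
JUP site 2: ccacctgccgagCAGGTGagcgcacggagt
The 2 JUP stretches overlap, so that each contains the other's hexamer in lower case. The sequence AACCGGTT, the core recognised by GRHL factors, occurs in 0.117% of the windows and in none of the members'. The PERP window held no CAGGTG and PKP3 had no window, so no site is shown for these members, the ones called lower in H1975–OR below. A match describes letters only, and binding was not measured.

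Per kilobase of its GENCODE canonical transcript, DSP was the most abundant member in each of the 5 conditions. In H1975 it stood at 49.9 ± 5.81 CPM per kb, followed by PKP3 at 36.7 ± 8.61, PERP at 30.9 ± 1.12 and JUP at 25.8 ± 8.21 CPM per kb (n = 3 each). DSC2 at 3.14 ± 1.84 and PKP2 at 2.18 ± 0.599 CPM per kb were far below these. In vehicle-treated H1975–OR, PKP3 at 13.4 ± 1.57 CPM per kb stood below PERP (20.8 ± 2.09) and JUP (20.0 ± 6.12). PKP2 at 3.42 ± 2.77 CPM per kb stood above DSC2 at 2.40 ± 1.01 there, a gap within their spread. The DSC2 value rests on a canonical transcript of 12331 bases, and shorter isoforms would give a higher value per length.

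**Figure D1:**
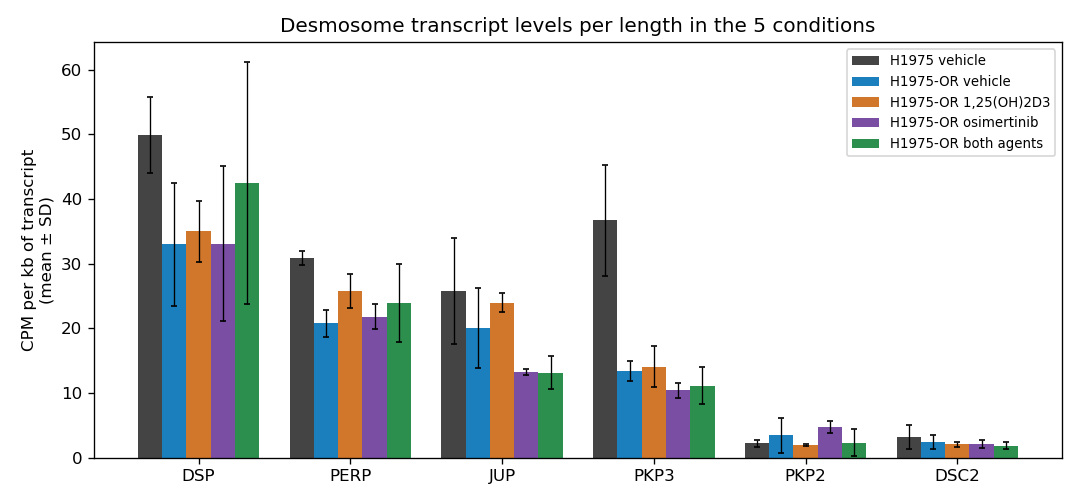
Mean level per kilobase of canonical transcript (CPM per kb, linear axis from 0) of the 6 members that passed the count filter, in the 5 conditions; bars are means, error bars the SD over 3 libraries (2 with 1,25(OH)2D3, without Sample 3a). DSP is highest in every condition, and PKP3 is the member with the widest step between H1975 and the H1975–OR groups.

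The remaining 4 members were at or near the floor. PKP1, a plakophilin of stratified epithelia, was listed at 0 in 14 of 15 libraries, with 2 counts in the other. DSG2, the desmoglein usually found in simple epithelia, was listed at 0 in 12 libraries and had 9 counts in Sample 3a, 3 in Sample 3c and 11 in Sample 4a. DSG3 and DSC3, cadherins of stratified epithelia, reached at most 7 and 5 counts. These 4 genes did not pass the filter on low counts and were not tested. A listed 0 is not proof of absence in this table. For example VCP, an essential gene singled out after its values were seen, ranged from 0 to 59 counts, and 950 values of 729 genes, among them DSG2 in 2 libraries, were positive but below 1e-300. The 6 tested members are therefore a plakin, 3 armadillo proteins, PERP and a single cadherin, DSC2.

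The first comparison asked how resistant cells differed from parental cells, both with vehicle. PKP3 and PERP fell in H1975–OR, and the other 4 tested members were not called. PKP3, a plakophilin that binds desmoplakin and desmosomal cadherins, stood at 76.2, 111 and 123 CPM in H1975 and at 33.2, 42.0 and 37.8 CPM in H1975–OR. All 3 resistant libraries lay below all 3 parental ones. The means were 103 ± 24.2 and 37.6 ± 4.42 CPM, a 2.71-fold lower level. The log2 fold change was −1.44 (SE 0.21), with an adjusted p of 0.00301 in the quasi-likelihood test of edgeR, adjusted by Benjamini and Hochberg's method over 12513 genes. Of all genes tested, 20.1% (2521 genes, and 1426 without replicate b of H1975) were called in this comparison and 10.3% were called lower and 9.89% higher, against 2 of 6 members called, both lower. PKP3 was called under each of the 15 alternative settings tried.

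PERP, a tetraspan membrane protein of desmosomes and a target of p53 and p63, stood at 131, 124 and 134 CPM in H1975. In H1975–OR it stood at 93.1, 91.4 and 77.1 CPM, again with no overlap. The log2 fold change was −0.56 (SE 0.12, adjusted p = 0.0138, edgeR), from a mean of 129.5 ± 4.71 to 87.2 ± 8.78 CPM. This call was lost when Sample 3a was kept in the fit, with the same fold change and an adjusted p of 0.09 (edgeR), although that library belongs to neither group compared. PERP has processed pseudogenes, and reads shared with them cannot be separated here.

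DSP, the plakin that ties the plaque to keratin filaments, also showed no overlap between the lines. It measured 498, 422 and 532 CPM in H1975 and 419, 305 and 235 CPM in H1975–OR. The log2 fold change of −0.58 (SE 0.20) had a 95% interval from −1.05 to −0.12 before adjustment and an adjusted p of 0.0784 (edgeR), so that DSP was not called. It was called with DESeq2 (adjusted p = 0.0253), without replicate a of H1975–OR vehicle (log2 fold change −0.84), and without the letter a libraries (−0.82, adjusted p = 0.0215, edgeR). PKP3, PERP and DSP were the members whose groups did not overlap, all lower in H1975–OR. Among all genes tested, 20.3% were lower and 19% higher without overlap.

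JUP, DSC2 and PKP2 overlapped between the lines. JUP, the plakoglobin shared by desmosomes and adherens junctions, measured 66.0, 83.0 and 122 CPM in H1975 and 45.6, 85.0 and 80.0 CPM in H1975–OR (log2 fold change −0.35, 95% interval −0.98 to 0.28). DSC2, the desmocollin with the widest tissue distribution, ranged from 19.4 to 63.7 CPM in H1975 and from 15.4 to 37.9 CPM in H1975–OR (−0.37, interval −1.40 to 0.67). Both intervals include 0. PKP2, a plakophilin of simple epithelia and heart, measured 7.10, 12.03 and 8.55 CPM in H1975 and 22.1, 20.3 and 0.964 CPM in H1975–OR. The low value of Sample 2c, 5 counts, decides the PKP2 result: the log2 fold change was 0.66 (interval −1.14 to 2.46, adjusted p = 0.597) with it and 1.21 (adjusted p = 0.0397, edgeR) without it. The median log2 fold change was −0.46 over the 6 tested members and 0.006 over all genes tested.

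**Figure D2:**
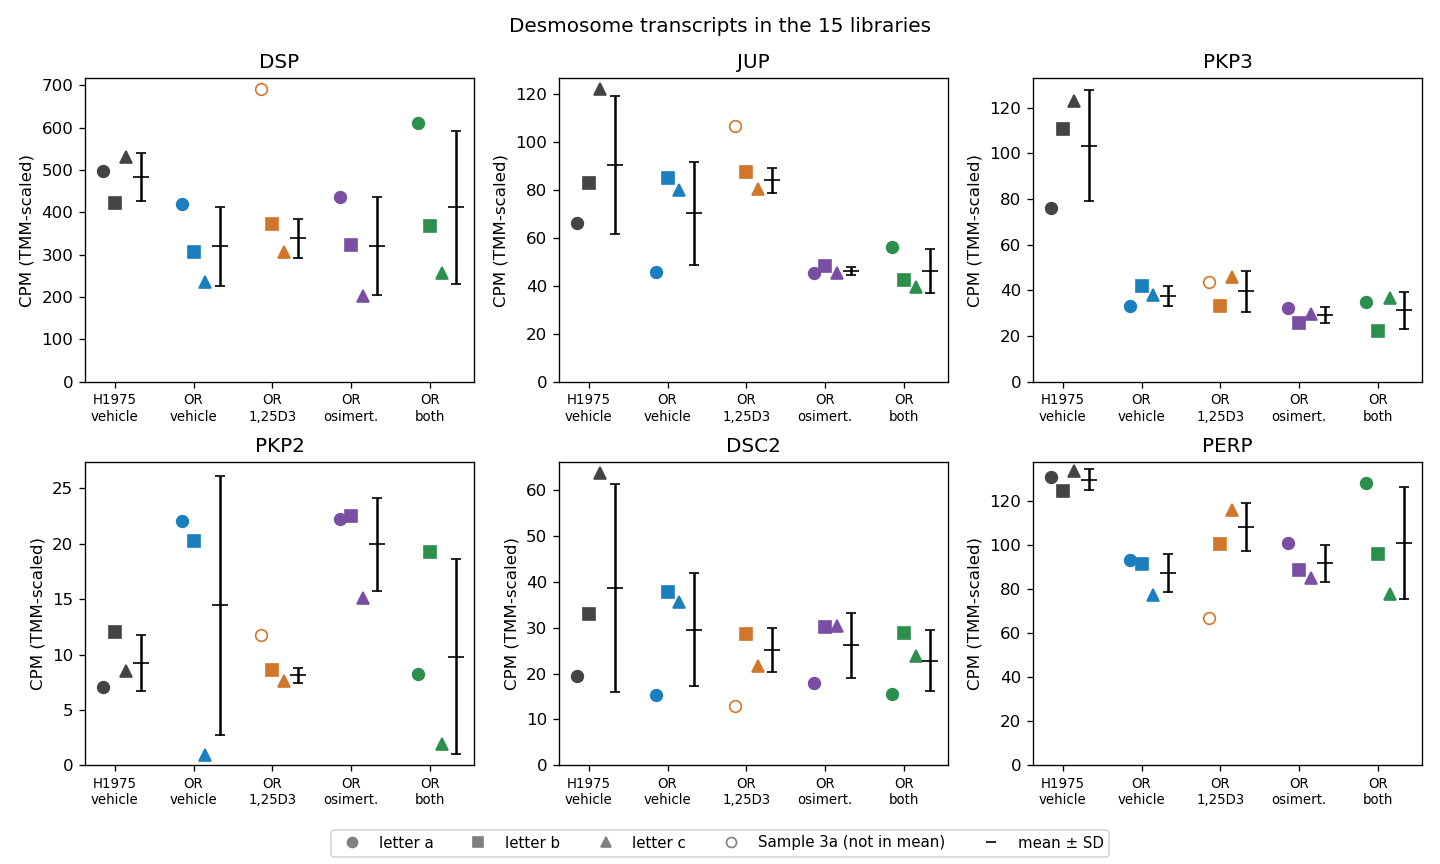
TMM-scaled CPM (linear axes from 0) of the 6 tested members in the 15 libraries; circles, squares and triangles are replicate letters a, b and c, the open circle is Sample 3a, and the black bars are the mean ± SD of the group without it. PKP3 and PERP are higher in all 3 H1975 libraries than in all 3 vehicle-treated H1975–OR libraries, and PKP2 is near 0 in Samples 2c and 5c.

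Other genes linked to the same junction were called in both directions between the lines. Of all genes tested in this comparison, 20.1% were called, 10.3% lower and 9.89% higher. These shares stand beside the counts of each list that follows. Of 9 further desmosome genes, 5 were tested and 1 was called: PPL, the plakin periplakin, rose from 67.1 ± 7.26 to 141 ± 10.1 CPM (log2 fold change 1.09, adjusted p = 0.000943, edgeR), opposite in direction to PKP3 and PERP. DSG1 and DSG4 were listed at 0 in all 15 libraries. Of 13 keratins, 9 were tested, 3 fell and 1 rose. KRT19 and KRT7, keratins of simple epithelia, fell by 1.74 and 1.46 on the log2 scale (adjusted p = 0.00246 and 0.00436, edgeR). KRT81, a hair keratin, fell by 2.51, from 7.90 ± 2.96 to 1.36 ± 0.806 CPM, a call lost without replicate b of H1975 or replicate c of H1975–OR vehicle. The keratin that rose, named after its values were seen, was KRT18 (log2 fold change 0.38), whose call held under 5 of 15 alternatives.

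Of 6 core genes of adherens junctions, 5 were tested and 2 fell. CDH1, the E-cadherin gene, fell by 5.11 on the log2 scale, from 243 ± 138 to 6.94 ± 2.20 CPM (adjusted p = 0.000557, edgeR), and CTNNB1, β-catenin, by 0.81 (adjusted p = 0.0143, lost without replicate b of either group). On the same log2 scale the PKP3 difference was −1.44 and the PERP difference −0.56. Of 8 genes of epithelial and lung adenocarcinoma identity, 6 were tested, 3 fell (EPCAM, KRT19 and KRT7) and 1 rose (KRT18). EPCAM, an epithelial adhesion molecule, fell by 3.69 on the log2 scale, from 152 ± 68.6 to 11.6 ± 1.96 CPM (adjusted p = 0.000596, edgeR).

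Of 11 transcription factors known to keep epithelial junction genes on, 9 were tested, 6 fell and none rose. GRHL2 had 126 to 314 counts in H1975 and at most 2 counts in any vehicle-treated H1975–OR library, at least 75.7-fold lower when set against the floor of 3 counts per library. OVOL1 was at least 22.7-fold lower on the same basis. Not all of these 6 calls held under the alternatives tried: named after their values were seen, that of ELF3 held under 13 of 15, that of EHF under 7 of 12 and that of GRHL3 under 6 of 12. Of 6 repressors of such genes, 4 were tested, 2 rose and 2 fell. ZEB2 rose by 2.30 on the log2 scale, from 6.61 ± 1.32 to 32.5 ± 3.06 CPM (adjusted p = 0.00048, edgeR). ZEB1 rose by 3.02 (adjusted p = 0.0318) with ranges of 1.22 to 8.14 and 9.41 to 51.3 CPM, and its call was lost under 6 of 15 alternatives. SNAI2 fell by 1.15 (adjusted p = 0.0153, edgeR), a call lost without replicate b of H1975 and with all 14 libraries in 1 fit. The other repressor that fell, SNAI1 (log2 fold change −0.79, named after its values were seen), was called under 3 of 15 alternatives.

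Of 11 markers of other cell types, 4 were tested. Their summed level was 37.9 to 52.7 CPM in H1975, 40.3 to 60.0 CPM with vehicle, 36.5 to 71.6 CPM with 1,25(OH)2D3 (Sample 3a included), 42.1 to 68.7 CPM with osimertinib and 37.3 to 71.4 CPM with both agents. The T-cell gene CD3E was at 0 in all 15 libraries, and the fibroblast gene LUM was at 0 in H1975. PDGFRB, a receptor of fibroblasts and pericytes, rose by 2.65 on the log2 scale in H1975–OR (adjusted p = 0.00468, edgeR), and CD68, a macrophage marker, fell by 1.18 (adjusted p = 0.0189, lost under 6 of 15 alternatives). Other fibroblast and leukocyte markers were near the floor in H1975 and in vehicle-treated H1975–OR: DCN at 0.739 and 0.859 CPM, PDGFRA at 0.322 and 0.193, PTPRC at 0.546 and 0.531, and LYZ at 0.376 and 0.617. The endothelial markers CDH5 and PECAM1 stood higher. CDH5 was at 3.48 ± 1.40 and 5.74 ± 1.57 CPM and PECAM1 at 4.14 ± 0.0632 and 1.27 ± 0.922 CPM in these groups, and neither was called. LUM stood at 2.39 ± 2.70 CPM in vehicle-treated H1975–OR. The part of all these markers in the differences of the desmosome genes was not tested.

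The second comparison asked what 1,25(OH)2D3 alone did in resistant cells. None of the 6 tested members was called at an adjusted p under 0.05 (edgeR), 1 had an unadjusted p under 0.05, and DESeq2 called 0, against 0.152% of all genes called. Of the 12513 genes tested, 910 had an unadjusted p under 0.05 (edgeR). Among the members, PERP came closest to a call. It measured 93.1, 91.4 and 77.1 CPM with vehicle and 100.3 and 116 CPM with 1,25(OH)2D3, so that both treated libraries lay above all 3 vehicle libraries. Among all genes tested, 13.1% were higher without overlap. The log2 fold change of PERP was 0.31 (SE 0.13, 95% interval 0.01 to 0.61, adjusted p = 0.672, edgeR). Sample 3a went the other way for PERP, at 66.7 CPM, below all vehicle libraries, and the log2 fold change was 0.12 with it in the fit.

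The other members overlapped between vehicle and 1,25(OH)2D3. DSP measured 372 and 307 CPM with 1,25(OH)2D3, inside the vehicle range of 235 to 419 CPM (log2 fold change 0.09, 95% interval −0.43 to 0.60). The treated group tested lacks letter a, the letter with the highest DSP level in each H1975–OR group. Between libraries of the same letter, DSP was higher with 1,25(OH)2D3 by 0.28 in b and 0.38 in c on the log2(CPM + 2) scale, and by 0.72 in a, where the treated library is Sample 3a. DSC2 went down in each letter, by −0.38 in b, −0.67 in c and −0.22 in a. The share of all genes that moved in the same direction in every letter was not computed. Over all genes, deviations of these same-lettered libraries correlated weakly, at r = 0.068 in b and 0.107 in c. Without the letter a libraries the log2 fold change of DSP was 0.33 (adjusted p = 0.765, edgeR), and it was 0.39 in a fit of the 11 H1975–OR libraries with the replicate block (adjusted p = 0.318, edgeR), neither of them called. PKP3 measured 33.3 and 45.9 CPM against 33.2 to 42.0 CPM with vehicle (0.08, interval −0.46 to 0.61). For both, a change of over 1.53-fold upward lay outside the unadjusted interval of this fit. For DSP this bound comes from groups unequal in letter. With Sample 3a kept in, the log2 fold change of DSP was 0.52, not called, so a larger rise of DSP cannot be set aside. JUP measured 87.4 and 80.3 CPM (0.26, interval −0.44 to 0.96), DSC2 28.6 and 21.8 CPM (−0.24, interval −1.41 to 0.94) and PKP2 8.59 and 7.62 CPM (−0.83, interval −2.89 to 1.23). The vehicle group includes Sample 2c, at 0.964 CPM of PKP2. In the same comparison CDH1 rose by 4.22 on the log2 scale (adjusted p = 0.024, edgeR), from 6.94 ± 2.20 to 129.8 ± 31.0 CPM, a call lost when any 1 of these 5 libraries or replicate b of H1975 was left out, and with the replicate block (adjusted p = 0.133). None of the further desmosome genes, keratins or transcription factors on the lists was called. The median log2 fold change of the 6 members was 0.08, against −0.007 over all genes.

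The third comparison asked how resistant cells given osimertinib differed from those given vehicle. As the sub-line was kept in osimertinib, this sets continued exposure against 96 h without the drug. None of the 6 tested members was called (edgeR), 1 had an unadjusted p under 0.05, DESeq2 called 0, and 0.048% of all genes tested were called. Of the 12503 genes tested, 941 had an unadjusted p under 0.05 (edgeR). Among the members, JUP had the largest difference relative to its error. It measured 45.6, 85.0 and 80.0 CPM with vehicle and 45.3, 48.1 and 45.4 CPM with osimertinib. The osimertinib libraries were within 3 CPM of each other, and the vehicle library of letter a lay among them. The log2 fold change was −0.60 (SE 0.22, 95% interval −1.09 to −0.10, adjusted p = 0.557, edgeR). Between libraries of the same letter, JUP differed by −0.01 in a, −0.80 in b and −0.79 in c on the log2(CPM + 2) scale, and without the letter a libraries the difference was called (−0.82, adjusted p = 0.0478, edgeR).

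PKP3 measured 32.2, 25.6 and 29.9 CPM with osimertinib, each below the vehicle range of 33.2 to 42.0 CPM. This held without overlap, as for 6.81% of all genes tested in that direction, but the difference was not called (log2 fold change −0.36, 95% interval −0.85 to 0.13, adjusted p = 0.813, edgeR). DSP (203 to 436 CPM) and PERP (85.1 to 101 CPM) lay close to their vehicle levels, with log2 fold changes of 0.01 (interval −0.77 to 0.79) and 0.07 (−0.32 to 0.47). DSC2 ranged from 17.9 to 30.5 CPM (−0.18, interval −0.98 to 0.62). PKP2 measured 22.3, 22.5 and 15.1 CPM, and its difference was 0.47 with Sample 2c and −0.08 without it. None of the listed keratins, junction genes or transcription factors was called, and KRT19 had the smallest adjusted p, 0.271 (edgeR).

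The fourth comparison asked what 1,25(OH)2D3 added to osimertinib. None of the 6 tested members was called (edgeR), 0 had an unadjusted p under 0.05, DESeq2 called 0, and 0.096% of all genes tested were called. Of the 12503 genes tested, 520 had an unadjusted p under 0.05 (edgeR). DSP measured 611, 368 and 257 CPM with both agents and 436, 322 and 203 CPM with osimertinib alone. Each library with both agents was above the osimertinib library of its own letter, by 0.48 in a, 0.19 in b and 0.33 in c on the log2(CPM + 2) scale. The log2 fold change was 0.35 (95% interval −0.43 to 1.13, adjusted p = 1), and 0.33 with the replicate letter as a block (adjusted p = 0.414, edgeR). PKP2 went the other way in each letter, by −1.25, −0.21 and −2.14 on that scale. It measured 8.22, 19.3 and 1.89 CPM with both agents, the last of these 8 counts in Sample 5c (log2 fold change −1.04, interval −3.01 to 0.93).

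The other members had smaller log2 fold changes between these groups. JUP measured 56.4, 42.6 and 39.4 CPM with both agents (log2 fold change −0.01, 95% interval −0.51 to 0.49), PKP3 34.9, 22.1 and 36.8 CPM (0.09, interval −0.40 to 0.58) and PERP 128, 95.9 and 77.9 CPM (0.13, interval −0.27 to 0.53). An increase over 1.40-fold for JUP and over 1.44-fold for PERP lay outside the unadjusted intervals. DSC2 ranged from 15.6 to 28.9 CPM (−0.21, interval −1.01 to 0.60). Between libraries of the same letter it went down in each, by −0.17 in a, −0.05 in b and −0.33 in c on the log2(CPM + 2) scale. For this comparison too, the share of all genes moving in the same direction in every letter was not computed. In the same comparison CDH1 rose by 3.42 on the log2 scale, from 4.68 ± 2.11 to 50.7 ± 15.2 CPM (adjusted p = 0.00929, edgeR), a call lost without replicate b of osimertinib. Whether the effect of 1,25(OH)2D3 differed with and without osimertinib was tested as an interaction. None of the 6 members and 0 of 12503 genes were called (edgeR), with 0 members and 330 genes at an unadjusted p under 0.05, and DESeq2 called 0 members and 11 genes. The member estimates ranged from −0.27 (JUP) to 0.27 (DSP) on the log2 scale.

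**Figure D3:**
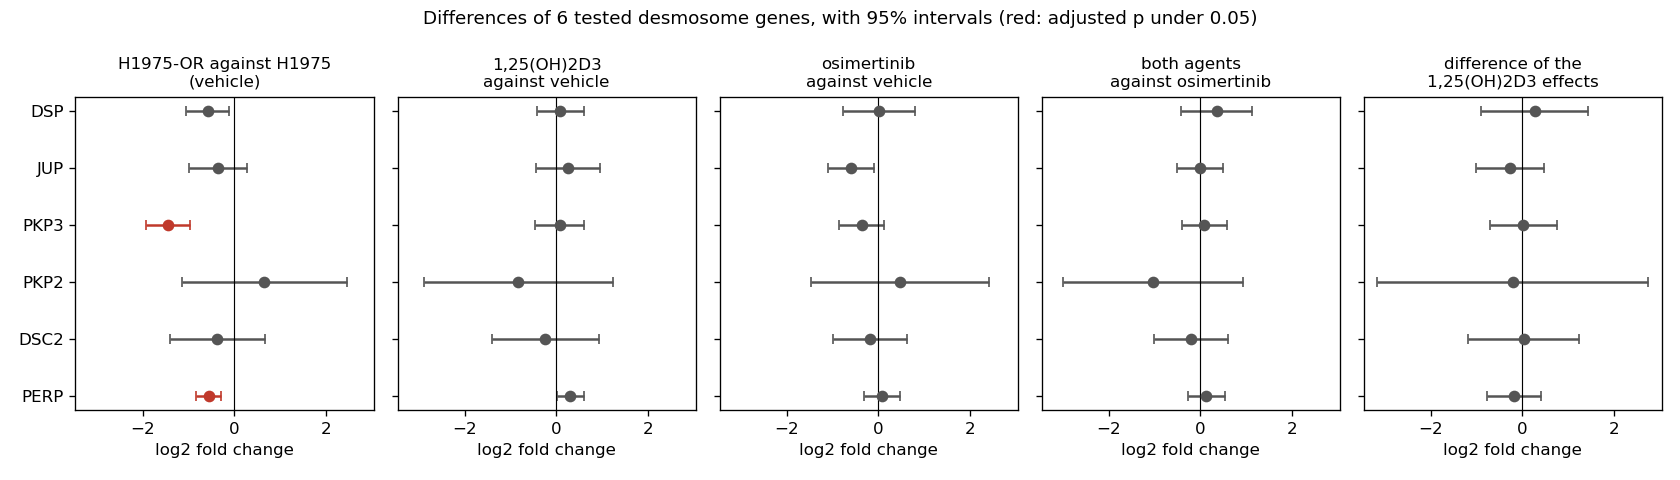
Log2 fold changes of the 6 tested members in the 5 comparisons, from edgeR's quasi-likelihood fit over all genes; bars are 95% intervals before adjustment, red marks an adjusted p under 0.05. Red points occur in the comparison of H1975–OR with H1975, for PKP3 at −1.44 and PERP at −0.56, and the PKP2 intervals are the widest in each panel.

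Ordered by their means, H1975 was the highest of the 5 conditions for DSP, JUP, DSC2, PKP3 and PERP, and osimertinib was the highest for PKP2. For PKP3 and PERP the H1975 libraries did not overlap the next group, H1975–OR with 1,25(OH)2D3, which holds 2 libraries. The shares of all genes with H1975 highest, or without such overlap, were not computed. PKP3 stood at 103 ± 24.2 CPM in H1975, 39.6 ± 8.92 with 1,25(OH)2D3, 37.6 ± 4.42 with vehicle, 31.3 ± 7.997 with both agents and 29.2 ± 3.33 with osimertinib, and none of the 4 H1975–OR neighbours in that order were separated. PERP stood at 129.5 ± 4.71 CPM in H1975 and between 87.2 ± 8.78 (vehicle) and 108 ± 10.9 (1,25(OH)2D3) in the resistant groups, where neighbours overlapped as well. For DSP, JUP, DSC2 and PKP2 no 2 neighbouring conditions were separated. JUP was lowest in the groups that received osimertinib, at 46.3 ± 1.60 and 46.1 ± 9.02 CPM, after 70.2 ± 21.4 with vehicle and 83.9 ± 5.05 with 1,25(OH)2D3.

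DSP and DSC2 differed by replicate letter in the same way across the H1975–OR groups. DSP was highest in letter a and lowest in letter c in all 4 H1975–OR groups, at 419, 692, 436 and 611 CPM in a and 235, 307, 203 and 257 CPM in c. The ratio of a to the mean of b and c was 1.55 to 2.04. Among all genes tested, 9.6% were highest in letter a in all 4 groups and 1.93% also had b above c. DSC2 was lowest in letter a in all 4 groups, at 12.9 to 17.9 CPM against 21.8 to 37.9 CPM in b and c, as were 9.53% of all genes. In the H1975 libraries DSC2 was likewise lowest in a, at 19.4 CPM, whereas DSP was highest in c, at 532 CPM. PERP had the order of DSP in the groups other than 1,25(OH)2D3, where Sample 3a was the lowest of its group. Of all genes tested, 3.30% had that order in those 3 groups. What the letters share is not stated in the sources used here, and its part in these levels was not tested.

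**Figure D4:**
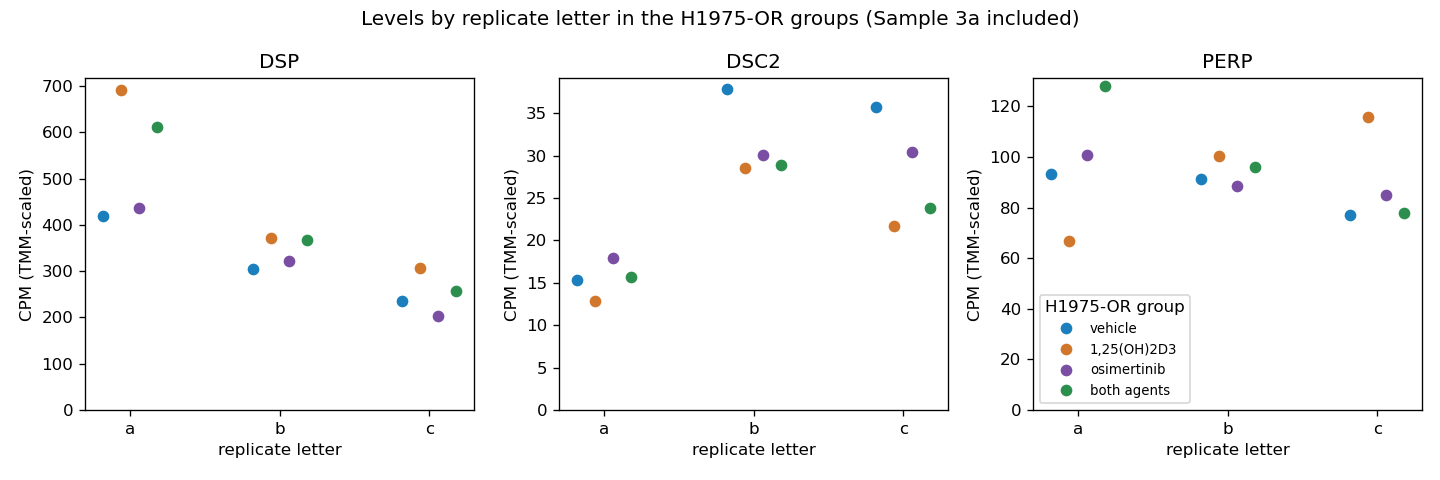
TMM-scaled CPM (linear axes from 0) of DSP, DSC2 and PERP by replicate letter in the 4 H1975–OR groups, 1 point per library and Sample 3a included. DSP is highest and DSC2 lowest in letter a in all 4 groups, and PERP in Sample 3a lies at 66.7 CPM, below the other libraries.

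To name the genes whose levels most resembled those of the desmosome members, z-scores of log2(CPM + 2) were averaged over the 6 members with a mean of at least 10 CPM. Over 14 libraries, the closest of 12228 other genes were RAB7A (Pearson r = 0.941), ELK3 (0.932), MYO1D (0.926), GPR39 (0.923) and DTX3L (0.909). Within the 11 H1975–OR libraries the closest were CORO2A (0.889), SIMC1 (0.879), KIAA1211L (0.877), MAML3 (0.869) and C1RL (0.865), and the 5 genes of 1 list did not recur in the other. These values describe libraries of 1 line and its sub-line, and the first set also spans the step between the lines. The members did not share 1 pattern, so that these genes resemble their average and not each member. Within the 11 H1975–OR libraries r was 0.77 between DSP and PERP and 0.62 between JUP and PKP3. It was −0.71 between DSC2 and DSP, −0.58 between DSC2 and PERP and −0.46 between PKP2 and PKP3.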

How the data were processed

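RNA of 15 cell line libraries was sequenced by the authors from stranded, ribosome-depleted total RNA as paired-end reads. The deposited values are estimated counts per gene, made by the authors with Kallisto on hg38 transcripts and summed with tximport, not scaled for library size or length. Per the submitters' processing notes the tools were CASAVA 1.8.2, STAR 2.5.2b and kallisto 0.43.0, with build GRCh38. The transcript annotation and strand setting are not given in the sources used here. The members, gene lists and tests were chosen with earlier results of these data known.

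Counts were rounded and tested with edgeR 4.0.16 (R 4.3.3): TMM scaling, filterByExpr by group (minimum count 10, minimum total 15), quasi-likelihood F tests, two-sided, Benjamini-Hochberg adjustment over all genes, threshold 0.05. The first 2 comparisons used 8 libraries (12513 genes) and the other 3 used 11 H1975–OR libraries (12503 genes), without Sample 3a. Intervals are 95% and unadjusted. The tests were tried on simulated counts. DESeq2 1.42.0, RLE size factors, no filter, Sample 3a kept in, the replicate letter as a block, all 14 libraries, and leaving out each library were alternatives. The letters were taken to pair H1975–OR libraries with vehicle, osimertinib and both agents, because deviations of same-lettered libraries correlated in each pair (r = 0.118 to 0.464 over 12782 genes), and not H1975 with vehicle-treated H1975–OR (−0.03 to 0.021) or with all H1975–OR groups (−0.12 to 0.082). For the 1,25(OH)2D3 libraries against the other H1975–OR groups, r was −0.001 to 0.068 in letter b and 0.107 to 0.154 in c. Pairing of these libraries is therefore less clear. The main tests used the group only, without the letter. The 10 members were named in every comparison, and from each list up to 3 genes with the smallest adjusted p. The values of 1 listed gene are not reported here. Further settings were added after seeing the data: all libraries of letter a left out, and 1,25(OH)2D3 against vehicle fitted in the 11 resistant libraries, alone or blocked by letter. Floors of 3 counts cover counting error only.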

Additional observations from a re-analysis of the deposited data

Results flagged for a closer look

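Sample 3a, which was left out of the tests, exceeded every vehicle-treated H1975–OR library, and their mean by over 1.5 times, for 2 of the 6 tested members. The untested DSG2, DSG3 and DSC3 did so as well, at 9, 7 and 5 counts in Sample 3a. The share of all genes that did so was not computed, and Sample 3a stood apart from its group over all genes. The count therefore does not set the desmosome members apart from other genes. DSP stood at 691.8 CPM in Sample 3a against at most 418.8 CPM with vehicle, and JUP at 106.6 CPM against at most 85.0 CPM. PKP3 in Sample 3a, 43.9 CPM against at most 42.0 CPM with vehicle, exceeded them by less. The other libraries with 1,25(OH)2D3 stood at 372 and 307 CPM for DSP and at 87.4 and 80.3 CPM for JUP. Whether the difference belongs to the treatment or to that library was not tested.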

How the results depend on the processing

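In the comparison of H1975–OR with H1975, 2 members were called as reported, 1 with Sample 3a kept in (PKP3), and 3 with DESeq2. With the replicate block the count stayed at 2, and the block changed no call of a member in any comparison. With osimertinib against vehicle, leaving out all letter a libraries gave 1 call (JUP) in place of 0. The other 3 comparisons gave 0 calls under every alternative.

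Reversed values all belonged to differences that were not called, and the cause was not tested. With the replicate block, the log2 fold change was −0.08 for PKP3 (1,25(OH)2D3), −0.02 for DSP (osimertinib) and −0.06 for DSP (interaction). Without the letter a libraries these 3 values were −0.01, −0.04 and −0.09, and PERP (both agents) stood at −0.01. With Sample 3a kept in, the interaction was −0.16 for DSP, −0.04 for PKP3 and 0.02 for PERP.

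Leaving out 1 library at a time gave 2 to 3 called members for H1975–OR against H1975, the added calls being DSP without vehicle replicate a and PKP2 without vehicle replicate c, and 0 elsewhere. Over these refits the log2 fold change of DSC2 between the lines ranged from −0.70 to 0.17. With 1,25(OH)2D3 the ranges were −0.09 to 0.33 for DSP and −0.17 to 0.29 for PKP3. With osimertinib they were −0.49 to 0.04 for DSC2, −0.28 to 0.25 for DSP and −0.08 to 0.92 for PKP2. With both agents against osimertinib they were −0.05 to 0.64 for DSP, −0.18 to 0.09 for JUP, −0.04 to 0.29 for PKP3 and −0.08 to 0.28 for PERP. For the interaction they were −0.19 to 0.33 for DSC2, −0.14 to 0.54 for DSP, −1.14 to 0.33 for PKP2 and −0.20 to 0.26 for PKP3.

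With 2 or 3 libraries per group, smaller changes could be missed, and the limit depended on the spread of each gene. The half-width of the printed intervals marks the limit before adjustment, and after adjustment over all genes the limit was larger. DSP between the lines, PERP with 1,25(OH)2D3 and JUP with osimertinib had intervals that left out 0 and were not called. The members at or near 3 counts allow no statement on change. Counts of genes called over the whole table moved by over 1.5 times under several alternatives: DESeq2 called 123, 116, 63 and 11 genes in the 4 comparisons within H1975–OR in place of 19, 6, 12 and 0, and the replicate block gave 9, 35 and 33 in the first 3 of these. With Sample 3a kept in, 1636 genes were called between the lines in place of 2521, and 5 with both agents against osimertinib. Leaving out 1 library gave 1426 (without replicate b of H1975; 1441 without replicate b of vehicle-treated H1975–OR) to 2835 genes between the lines. Within H1975–OR it gave 5 (without 1,25(OH)2D3 replicate c) to 18 genes for 1,25(OH)2D3, 1 (without replicate b or c of osimertinib or of vehicle) to 29 (without vehicle replicate a) for osimertinib, 3 (without replicate b of both agents, or replicate a or b of osimertinib) to 14 for both agents against osimertinib, and 0 to 1 for the interaction. With no filter 32, and with all 14 libraries in 1 fit 29, were called for 1,25(OH)2D3, and without the letter a libraries 80 for osimertinib.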
